A study of Mus musculus with 357 samples.

Results

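Among 357 single hematopoietic stem cells (HSCs) of mouse bone marrow, 245 had a Cd34 transcript by quantitative PCR and the others did not. Cd34-detected cells were those with a Cd34 threshold cycle (Ct) of 25 or below, and Cd34-undetected cells those with a later product or none. A Ct is the PCR cycle at which the product becomes measurable, and each cycle earlier means about 1 doubling more template. The members were thus chosen by a measured value, the Ct of Cd34, and the other 95 assays were compared between the groups. All cells carried the Col1a1-tetO-H2B-mCherry genotype, a fluorescent histone that is diluted by cell division. They were isolated after a chase of 2 weeks (plates of 90 and 93 cells) or 5 weeks (plates of 91 and 83 cells), and had been sorted as Lin-Sca1+c-kit+CD48-CD150+. The labels name no animal, age, sex or driver of the tetO transgene, so cells are not replicates of an animal and no p-value was computed. The 4 plates were the only repeated unit, and each held cells of 1 chase time.

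CD34 is a sialomucin of the cell surface that is low or absent on many long-term repopulating HSCs of adult mice and present on many activated stem cells and multipotent progenitors. The transcript in a cell and the protein on its surface need not go together, and CD34 was not part of the stated sorting phenotype. Mllt3 encodes AF9, a subunit of a complex that promotes transcription elongation, and is known for a role in stem cell maintenance. It was named with Cd34 because earlier results on these cells had shown the pair to vary inversely, so its values here are a description.

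Cd34 divided the cells with few values near the limit. It was found in 55 of 90 cells on plate 1 and 56 of 93 on plate 2 at 2 weeks, and in 71 of 91 and 63 of 83 on the 5-week plates. The undetected cells numbered 35, 37, 20 and 20 in the same order, so the 5-week shares in undetected cells rest on 20 cells a plate. The Cd34 Ct ran from 11.1 to 23.8 with a median of 14.4, and 86.1% of detected cells lay between Ct 12 and 16. The latest products were at Ct 23.8, 23.6, 23.1, 21.9 and 19.1, and the next was at 17.9. No Cd34 product was later than 25, so the cells just outside the limit had no product at all. A transcript that was absent and one that was lost before amplification cannot be told apart.

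**Figure D1:**
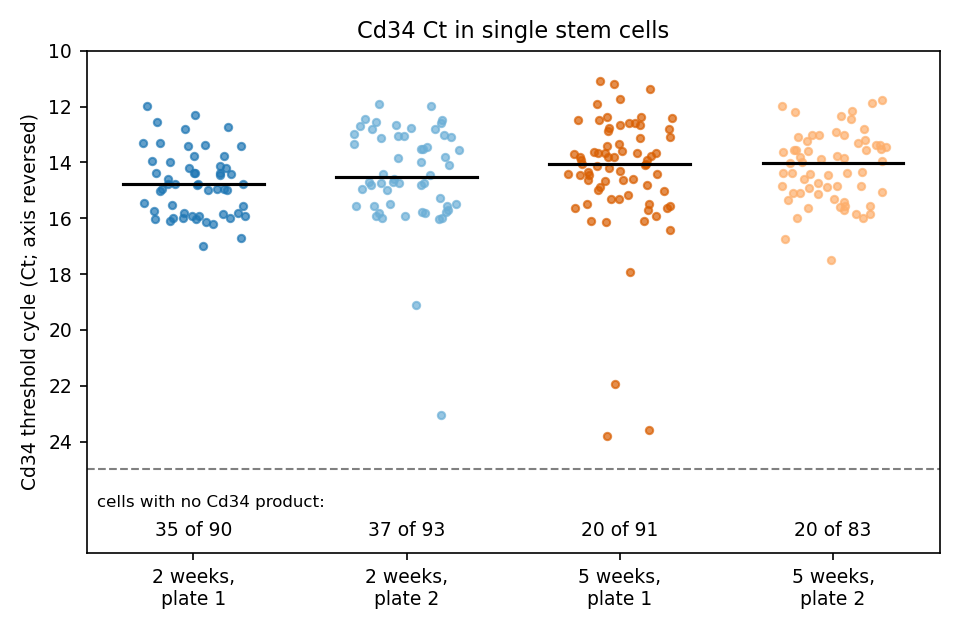
Cd34 Ct of each cell with a product, by plate, on a reversed axis (earlier cycles at the top), with the plate median as a bar and the limit of Ct 25 as a dashed line. The number of cells without a Cd34 product is printed under each plate. The products cluster around the plate medians of 14.8, 14.5, 14 and 14, and 5 cells lie past Ct 18.

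The groups also differed in the Ct of the housekeeping genes Actb and Gapdh. The mean Ct of the pair was lower in Cd34-detected cells on each plate, by differences of -0.36 and -0.34 cycles at 2 weeks and -0.37 and -0.21 at 5 weeks. The cells overlapped widely, since the detected cell had the lower Ct in 64.4, 63.2, 60.2 and 59% of pairs of a detected and an undetected cell of the same plate. Among cells with a product, and before any centring, Actb was higher in Cd34-detected cells by 0.38 and Gapdh by 0.25 on the log2 scale, against a median of 0.09 over 69 assays. Of the other 95 assays, Cd34-detected cells had a product in 55.4 ± 5.28, 53.2 ± 4.89, 59.2 ± 5.40 and 57.4 ± 5.09 (mean ± SD over cells), and undetected cells in 54.1 ± 4.93, 53 ± 6.00, 58.1 ± 4.25 and 56 ± 8.35. The comparisons below were therefore also made within 3 strata of equal size by the mean Ct of Actb and Gapdh.

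Both groups matched the sorted phenotype in the transcripts of Kit and Cd48, but less so in those of Ly6a (Sca1) and Slamf1 (CD150). Ly6a was detected in 84% of Cd34-detected and 77.5% of undetected cells, and Slamf1 in 59.2 and 74.7% (means of the plates). Kit, the stem cell factor receptor, was detected in 99.6% of Cd34-detected and 98.7% of undetected cells (means of the plates). Cd48 was detected in 5 of 245 Cd34-detected cells (2.04%, exact Clopper-Pearson 95% interval 0.67 to 4.70%), all with products past Ct 18. In the undetected cells it was found in 0, which allows a share of up to 2.68%. Intervals and limits cover counting error only. Of 9 markers of mature lineages and 6 of endothelium or stroma 0 were among the assays. Of the lymphoid markers 3 were measured (Dntt, Ebf1 and Tcf7), and a cell had on average 0.08 to 0.09 of them in the Cd34-detected group and 0.05 to 0.14 in the undetected group, by plate, with Ebf1 at 0 in all cells. Of the 2 measured granulocyte and monocyte markers (Csf1r and Cebpe) cells had 0.08 to 0.22 and 0.00 to 0.19.

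The main question was which genes were detected in more or in fewer of the cells that had Cd34. Cd34-detected cells less often had vwf, Slamf1, Cdkn1c, Ezh1 and Fos, and more often Flt3, Cdkn2c, Rb1 and Ikzf1. An assay was called when the difference in detection share, Cd34-detected minus undetected, had the same sign on all 4 plates and averaged at least 10 percentage points. By this rule 4 of 95 assays (4.21%) were higher and 5 (5.26%) were lower. The median difference over the 95 assays was 1.07 points. With no minimum size, 11 assays (11.6%) were higher and 5 (5.26%) lower on all 4 plates. Differences of the other assays varied from plate to plate, and over the 95 assays the differences of a pair of plates had a Pearson correlation between -0.02 and 0.32, with cells of a plate sharing their chase time.

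**Figure D2:**
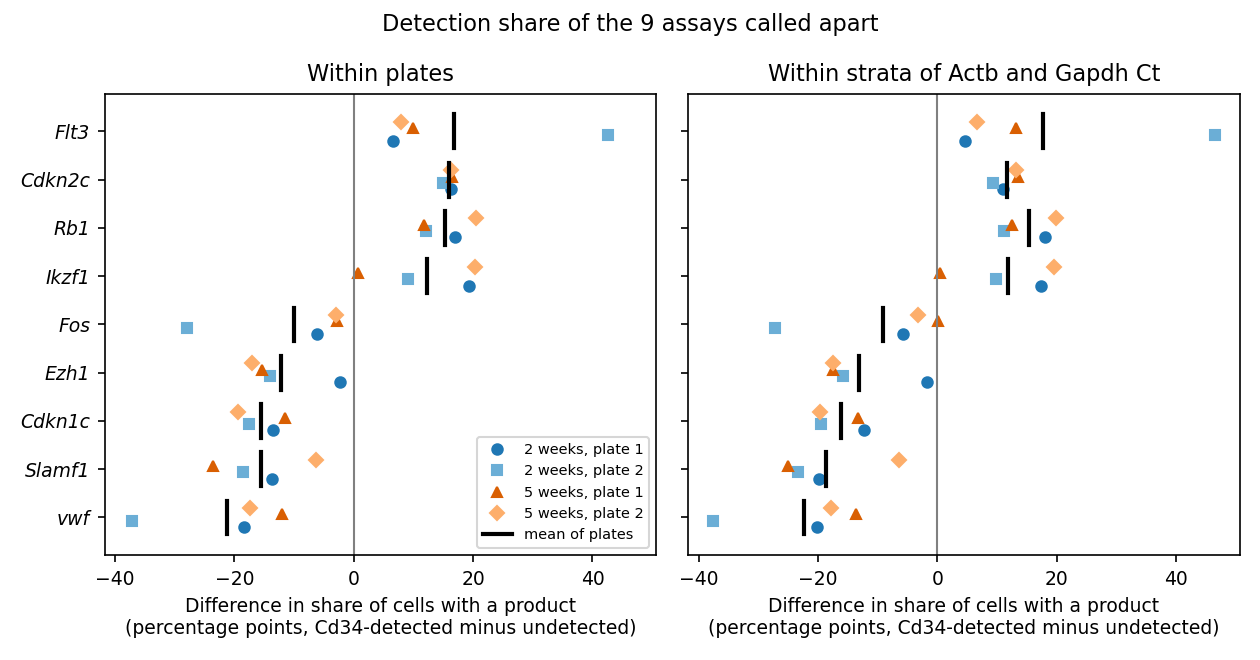
Difference in detection share (percentage points, Cd34-detected minus undetected cells) of the 9 called assays on each of the 4 plates, with the mean of the plates as a black bar. The left panel shows differences within plates and the right panel those within strata of the Actb and Gapdh Ct. All plates lie on the same side of 0 on the left, and on the right 1 plate of Fos lies at 0.07.

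The largest difference downward was that of vwf, which encodes von Willebrand factor, a platelet adhesion protein that also marks platelet-biased stem cells. On the 2-week plates it was detected in 27.3% (interval 16.1 to 41%) and 19.6% (10.2 to 32.4%) of Cd34-detected cells, against 45.7% (28.8 to 63.4%) and 56.8% (39.5 to 72.9%) of undetected cells. On the 5-week plates the shares were 47.9% (35.9 to 60.1%) and 47.6% (34.9 to 60.6%) against 60.0% (36.1 to 80.9%) and 65% (40.8 to 84.6%). The intervals of the groups separated on 2-week plate 2 alone. The mean difference was -21.3 ± 10.9 points (SD over the 4 plates), and it was -16.0 without that plate. No vwf product was later than Ct 18.

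Slamf1 encodes CD150, a surface protein by which all these cells had been sorted. Its transcript was detected in 69.1, 62.5, 46.5 and 58.7% of Cd34-detected cells (2-week plates 1 and 2, then 5-week plates 1 and 2) and in 82.9, 81.1, 70.0 and 65% of undetected cells. The mean difference was -15.5 ± 7.35 points, with plate values from -23.5 to -6.27. The transcript share was thus lower in Cd34-detected cells within a population gated as CD150+. The amount of the protein on each cell was not among the values compared.

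Cdkn1c encodes p57, a cell cycle inhibitor known for keeping HSCs quiescent. It was detected in 43.6, 44.6, 53.5 and 55.6% of Cd34-detected cells and in 57.1, 62.2, 65 and 75% of undetected cells. The plates were close to each other, with differences from -19.4 to -11.5 and a mean of -15.5 ± 3.64 points. Ezh1, a Polycomb histone methyltransferase, was detected in 69.1, 58.9, 74.6 and 73% of Cd34-detected cells and in 71.4, 73, 90 and 90% of undetected cells, a mean difference of -12.2 ± 6.67 points. On 2-week plate 1 the groups differed by -2.34 points only, and the call was lost when wells with fewer than 50 other assays detected were left out (-11.5 points, plates no longer of 1 sign) and when all plates were pooled (-9.18 points).

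The immediate early gene Fos, whose product is part of the AP-1 factor, rested on 1 plate. Its transcript was found in 1 of 56 Cd34-detected and 11 of 37 undetected cells on 2-week plate 2, a difference of -27.9 points, while the other plates differed by -6.23, -2.89 and -3.02. Its mean of -10.0 ± 12.1 points was -4.05 without that plate, and it also lost its call at several other Ct limits and within strata of the Actb and Gapdh Ct (-9.02 points). Of its products 50.5% were later than Ct 18.

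On the other side stood Flt3, the receptor by which multipotent and lymphoid-biased progenitors are recognised. Flt3 was detected in 43.6, 69.6, 54.9 and 42.9% of Cd34-detected cells and in 37.1, 27, 45 and 35% of undetected cells. The plate differences were 6.49, 42.6, 9.93 and 7.86 points, with a mean of 16.7 ± 17.3. The direction was the same on all plates, but 2-week plate 2 held much of the size, and without it the mean of 8.09 was below the 10 points required. With a stricter detection limit of Ct 18 the mean difference was 22.1 points, with plates from 9.35 to 45.3. Late products were more frequent among the Flt3 products of undetected cells (28.2%) than of Cd34-detected cells (15.5%).

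Cdkn2c and Rb1 belong to the pathway that restrains the G1 phase. Cdkn2c encodes p18, an inhibitor of the kinases CDK4 and CDK6, and Rb1 encodes the retinoblastoma protein on which those kinases act. Cdkn2c was detected in 36.4, 44.6, 46.5 and 41.3% of Cd34-detected cells and in 20.0, 29.7, 30.0 and 25% of undetected cells. Its differences, 14.9 to 16.5 points with a mean of 16 ± 0.73, were more alike between plates than those of the other called assays. Rb1 was detected in 65.5, 60.7, 71.8 and 55.6% against 48.6, 48.6, 60.0 and 35%, a mean difference of 15.3 ± 4.19 points. The inhibitors Cdkn1c and Cdkn2c therefore lay on opposite sides, each with 4 plates of 1 sign.

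Ikzf1 encodes Ikaros, a transcription factor required for lymphoid development. It was detected in 96.4, 92.9, 95.8 and 95.2% of Cd34-detected cells and in 77.1, 83.8, 95 and 75% of undetected cells. The mean difference was 12.3 ± 9.20 points, but 5-week plate 1 differed by 0.77 points, and without 5-week plate 2 the mean was 9.69. At detection limits of Ct 20 and 18 the plates were no longer of 1 sign, and in wells with at least 50 other assays detected the mean was 9.46. Nearly all Cd34-detected cells thus had Ikzf1, and the plates differed mainly in the undetected cells.

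Within strata of the Actb and Gapdh Ct, 4 of 95 assays (4.21%) were called higher and 4 (4.21%) lower, and these were the same assays without Fos. Slamf1 was at -18.6 points (plates from -25.0 to -6.33), vwf at -22.3, Cdkn1c at -16.2 and Ezh1 at -13.1. Rb1 was at 15.5, Flt3 at 17.7 and Ikzf1 at 11.8 points. Without 2-week plate 2 Flt3 was at 8.15, and Ikzf1 was at 9.97 without 2-week plate 1 and 9.23 without 5-week plate 2. Cdkn2c was at 11.8 points (9.27 to 13.5). In a linear fit on the same Ct Cdkn2c was at 9.30 and Ikzf1 at 11.3 points, and neither was called there. The differences of Slamf1, vwf, Cdkn1c, Ezh1, Rb1 and Flt3 were at least as far from 0 within the strata as without them. Those of Ikzf1 and Cdkn2c were smaller. Itga2b, which encodes CD41, was near the call before this step, with differences from 7.72 to 12.6 and a mean of 9.71 points. Within the strata it was at 3.21 points, and 86.4% of its products were later than Ct 18.

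**Figure D3:**
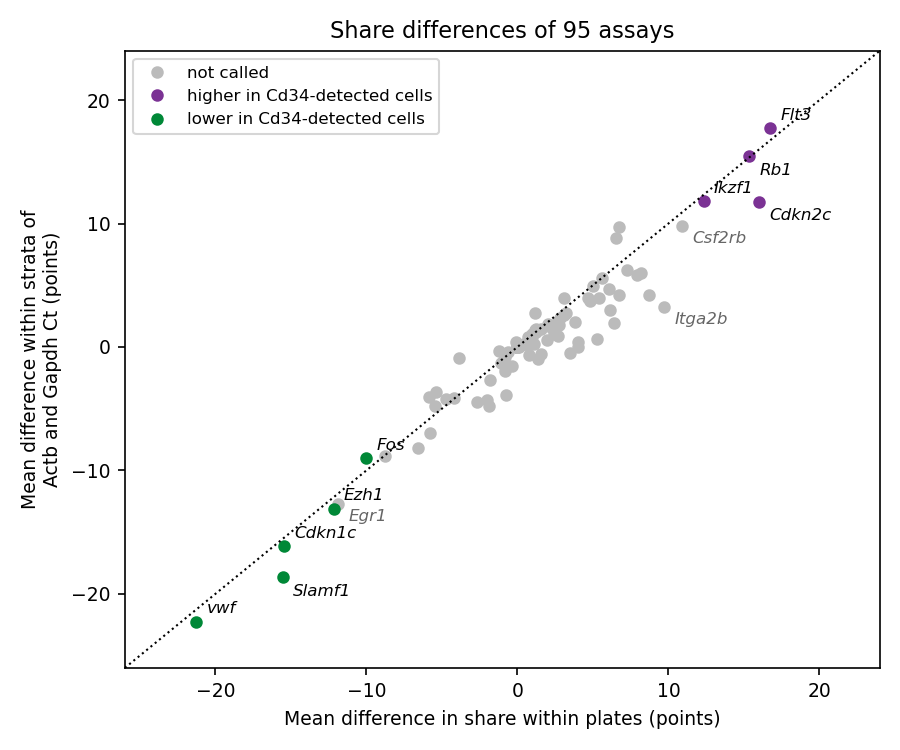
Mean difference in detection share within plates (horizontal axis, percentage points) against that within strata of the Actb and Gapdh Ct (vertical axis) for the 95 assays, with the line of equality dotted. The called assays lie near the line, apart from Cdkn2c at 16 and 11.8 points and Slamf1 at -15.5 and -18.6.

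The next comparison concerned the level of a gene among cells that had its product. A level was taken by subtracting the Ct of the gene from the mean Ct of Actb and Gapdh in the same cell, on a log2 scale. It was compared for 69 assays, those that 5 or more cells of both the Cd34-detected and the undetected group had on each plate. Mllt3 showed the largest difference downward. It was detected in nearly all cells, 93.8% of Cd34-detected and 98% of undetected cells as means of the plates, so the groups differed in its level and not by the rule in its share (-4.22 ± 5.03 points).

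The Mllt3 level of Cd34-detected cells ran from -6.20 to 0.37 with a median of -3.01 on 2-week plate 1, and from -9.88 to 0.34 with a median of -3.44 on plate 2. On the 5-week plates it ran from -5.98 to 0.39 (median -2.81) and from -5.54 to 0.41 (median -2.94). In undetected cells it ran from -4.71 to -0.52 (median -2.30) and from -5.25 to 0.39 (median -1.79) at 2 weeks, and from -4.34 to 0.31 (median -1.72) and from -5.19 to 0.33 (median -1.49) at 5 weeks. The cells of the groups overlapped over most of this range, and the median was lower in Cd34-detected cells on each plate. The Cd34-detected cell had the higher Mllt3 level in 35.2, 21.1, 30.8 and 29.3% of within-plate pairs of cells.

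As plate means, the Mllt3 differences were -0.76, -1.77, -1.0 and -1.04, with a mean of -1.14 ± 0.44 (SD over the 4 plates). The mean was -0.93 without 2-week plate 2. Without centring on Actb and Gapdh it was -0.83 (plates from -1.43 to -0.39), and it was -0.90 relative to the median difference over all assays. Mllt3 was called lower under each of the 12 alternatives run for its level.

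**Figure D4:**
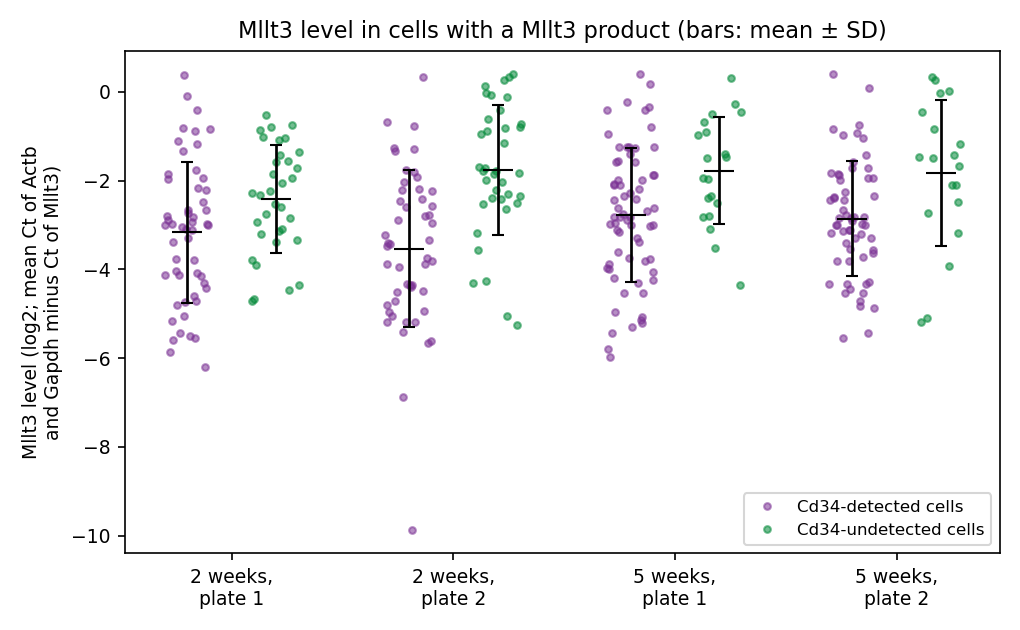
Mllt3 level (log2, mean Ct of Actb and Gapdh minus Ct of Mllt3) of each cell with a Mllt3 product, by plate, for Cd34-detected and Cd34-undetected cells, with mean and SD as bars. The mean of the detected cells lies below that of the undetected cells on each plate, by -1.77 to -0.76, and the clouds overlap.

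By level, an assay was called when the plates had 1 sign and the mean difference was at least 0.5. After centring 1 of 69 assays (1.45%) was higher, Flt3, and 8 (11.6%) were lower, among them Mllt3, Jun, Ly6a, Slamf1, Ezh1, trib3 and Cdkn1c. With no minimum size, 3 (4.35%) were higher and 22 (31.9%) lower on all 4 plates. These counts depended on the centring, because Actb and Gapdh were themselves higher in Cd34-detected cells. The median difference over the 69 assays was -0.20 after centring and 0.09 without it. Relative to the median of each plate 5 (7.25%) were higher and 3 (4.35%) lower, and without centring 4 (5.80%) and 2 (2.90%). Centred on 14 broadly detected assays, 3 (4.35%) were higher and 4 (5.80%) lower.

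Jun and Mllt3 were the assays called lower on all 3 scales. Jun encodes the partner of Fos in AP-1, and its mean differences were -0.92, -1.29, -0.83 and -1.26, on average -1.08 ± 0.24. It was -0.83 relative to the median and -0.72 without centring. With medians in place of means it was -0.47 and no longer called. Jun was detected in 62.9% of Cd34-detected and 62.1% of undetected cells, so its share gave no such difference.

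Ly6a encodes Sca1, another protein of the sort, and its level difference was -0.75 ± 0.43. It was -0.51 relative to the median and -0.39 without centring, where the plates were no longer of 1 sign. The share of cells with Ly6a differed by 5.19, 7.24, 23.9 and -10.2 points and was not called. Slamf1 was lower in level by plate differences of -0.60, -1.08, -0.56 and -0.29, in addition to its lower share. Its mean of -0.63 was -0.39 relative to the median, below the size required, and -0.48 without 2-week plate 2. Ezh1 (-0.60), trib3 (-0.58) and Cdkn1c (-0.50) were likewise not called relative to the median or without centring, where trib3 was at 0.02. Without 2-week plate 2 Ezh1 was at -0.44 and Cdkn1c at -0.47, and without 5-week plate 1 Cdkn1c was at -0.41. The Cdkn1c mean of -0.5008 lay just past the limit of 0.5. That of trib3 was no longer past it without 2-week plate 1.

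Flt3 was higher in level in Cd34-detected cells, by 1.43, 0.33, 0.82 and 2.24 on the plates. The number of undetected cells with Flt3 was small, at 13, 10, 9 and 7. The mean was 1.20 ± 0.82, 1.45 relative to the median and 1.44 without centring, and Flt3 had no level at Ct 18 for want of cells. With medians in place of means Flt3 was at 0.87, with plates no longer of 1 sign. CDK6, a kinase of the G1 phase, differed by -0.09, 0.64, 1.41 and 1.42, so that it was not called after centring. It was called relative to the median (1.08) and without centring (1.11). Among products at Ct 18 or below the centred level difference of CDK6 was only 0.24, with plates from 0.01 to 0.84. Its share at Ct 18 or below was higher in Cd34-detected cells by 9.60 to 21 points, with a mean of 15.3, whereas at Ct 25 its plates differed by 24.4, 6.37, 0.14 and 0.71.

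**Figure D5:**
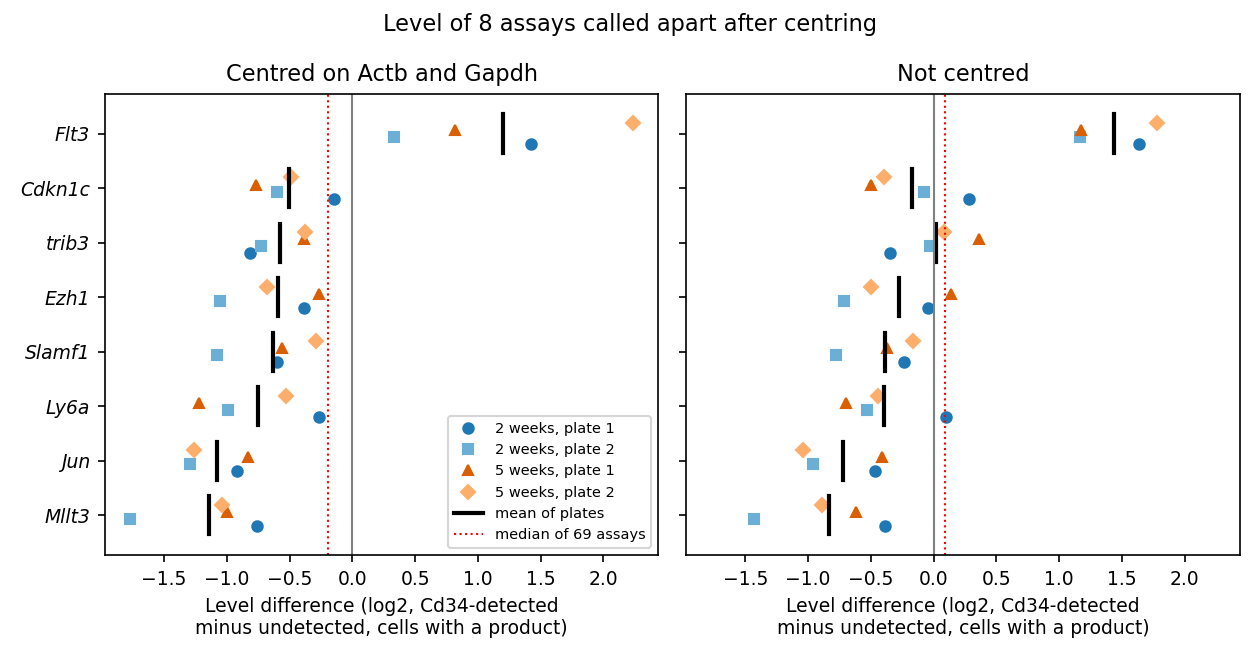
Level difference (log2, Cd34-detected minus undetected cells) of 8 assays called after centring, on each of the 4 plates, centred on Actb and Gapdh (left) and not centred (right). Black bars are means of the plates, and the dotted line is the median of 69 assays, at -0.20 and 0.09. Mllt3, Jun, Slamf1 and Flt3 have all plates on 1 side of 0 in both panels.

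Lists of genes were compared by their counts, beside the background shares of 4.21 and 5.26% and the median of 1.07 points over all assays. Of 20 measured stem cell identity genes 0 were called in share, with a median of 0.16 points. By level 2 of 15, among them Mllt3, were lower after centring, beside 8 of 69 (11.6%) over all assays. Relative to the median of each plate 1 of the 15 was lower. Hlf, a transcription factor of HSCs, was detected in 99.2 and 100% of Cd34-detected and undetected cells, and its level differed by -0.34, or -0.02 without centring. The growth suppressor ndn, the member with the largest share difference, was at -6.59 points with plates from -18.4 to 4.65. Of the 3 multipotent progenitor genes 1 was higher (Flt3), and CDK6 was at 7.91 points, or 5.79 within strata of the Actb and Gapdh Ct, where its plates ran from -2.63 to 21.8. Cd48 was at 2.05 points, which rests on the 5 cells with late products described above.

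Of the 10 measured megakaryocyte and erythroid genes vwf was lower and 9 were not called, and the median was 2.90 points, or 0.83 within strata of the Actb and Gapdh Ct (0.43 over all assays). Besides vwf, the member farthest from 0 was Itga2b, at 9.71 points and 3.21 within the strata. Of the measured erythroid and megakaryocyte markers, a cell had on average 0.98 to 1.68 of 5 in the Cd34-detected group and 1.17 to 1.75 in the undetected group, by plate.

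Among 11 measured cell cycle inhibitors 2 were higher (Cdkn2c and Rb1) and 1 was lower (Cdkn1c), with a median of 1.34 points. Of 9 measured cell cycle genes 0 were called in share, and the median of 6.07 points was 3.02 within strata of the Actb and Gapdh Ct. By level 0 of 8 were called after centring. Relative to the median of each plate 3 were higher, beside 5 of 69 (7.25%) over all assays. They were CDK6 (1.08), Cdt1 (0.60) and Myc (0.52), and without centring they were called too (1.11, 0.60 and 0.57). Centred on broadly detected assays Myc was not called (0.39). Of the Cdt1 products 70.2% were later than Ct 18. The licensing factor Cdt1 was at 8.72 points and cyclin E1 (Ccne1) at 6.71, both with plates of both signs. Of the 3 immediate early genes Fos was lower in share and Jun in level. Egr1 was at -37.7, -20.1, 0.99 and 9.21 points, with a mean of -11.9, and was not called because the plates had both signs.

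Of 7 measured lymphoid genes 1 was higher (Ikzf1), and the median was 0.52 points. Tcf3, which encodes the E2A proteins, was at 2.06 points and IKZF2, which encodes Helios, at 1.19. Of 6 granulocyte and monocyte genes 0 were called in share, with a median of 3.41 points. By level 1 of 2, Cebpa, was higher relative to the median of each plate (0.99), but was not called after centring or without it. The cytokine receptor chain Csf2rb was at 6.75, 23.2, 14.6 and -0.95 points, with a mean of 10.9, and like Egr1 it passed the size but not the rule on signs. The factor Cebpa was at 4.80 points, and at 14.4 among products at Ct 18 or below (plates from 3.28 to 32.9), since 47.9% of its products in undetected cells were later, against 32.7% in Cd34-detected cells. Sfpi was at 4.68 points.

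In the remaining lists 1 of 3 Polycomb genes was lower (Ezh1), while Cbx7 was at 2.21 and Cbx6 at 0.79 points. Of 10 genes of the SCL complex, 4 ETS family genes and 5 homeobox genes 0 were called in share, with medians of 1.83, 1.42 and 0.90 points. Many of these genes were detected in nearly all cells, such as Etv6 (99.7%), Fli1 (95.8%), Runx1 (95.0%), Cbfa2t3 (94.1%) and Hhex (93.3%). A difference of 10 points could hardly arise there, so the lack of calls says little about them. Nkx2.3 (57.1%) and pbx3 (32.5%) had room to differ. Among them were Cbfa2t3 at 4.99 points, Runx1 at 2.80, Tal1 at 2.75, Fli1 at 1.59, Etv6 at 1.25, pbx3 at 5.40, Nkx2.3 at 1.25 and Hhex at 0.90. Actb, Gapdh and Trp53 were detected in all cells of both groups.

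The graded relation to Cd34 was read as Spearman's rho between Ct values within a plate, with undetected reactions at Ct 25, for the 80 assays that no fewer than 10% of the cells of any plate had. A negative value means that a gene was lower where Cd34 was higher. This Ct also chose the members, and all cells without Cd34 are tied at 25, so the ranking in part restates the comparison of shares and levels above and is a description. The cells of a plate share their chase time, and the median over the 80 assays was 0.07. The lowest means were those of Mllt3 (-0.37, plates from -0.58 to -0.22, Pearson's r -0.46 to -0.13), vwf (-0.26, -0.43 to -0.14) and Cdkn1c (-0.23, -0.36 to -0.16). The highest were those of Flt3 (0.32, 0.25 to 0.49), Trp53, which encodes p53 (0.31, 0.15 to 0.40), and CDK6 (0.31, 0.23 to 0.36), with Actb next at 0.30.

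Among the cells that had Cd34, the amount of Cd34 ran the same way for some of these genes. In cells with both products, 50 to 67 a plate, rho of Mllt3 with Cd34 was between -0.33 and -0.15. With the Actb and Gapdh Ct held constant as a partial correlation it was between -0.35 and -0.13. Flt3 was between 0.16 and 0.46 on that scale (24 to 39 cells a plate) and CDK6 between 0.10 and 0.28, while Trp53 ran from -0.10 to 0.25. The partial rho of vwf ran from -0.77 to 0.01, in only 11 to 34 cells a plate. Its rho without the Actb and Gapdh Ct held constant ran from -0.63 to 0.26. The median partial rho of the assays was 0.03.

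The assays with the largest differences downward and upward, vwf and Flt3, can be set side by side in the same cells. They were chosen for those differences, so this gives the same counts from the other side and is no further evidence. The share of Cd34-detected cells was lower among cells with vwf and no Flt3 than among cells with Flt3 and no vwf on each plate. It was 48, 14.3, 72 and 73.3% of 25, 21, 25 and 30 cells in the former, and 67.7, 81.6, 85.2 and 90.5% of 31, 38, 27 and 21 cells in the latter. On 2-week plate 2 the intervals were apart (3.05 to 36.3% against 65.7 to 92.3%), and on the other plates they overlapped. With all plates pooled, cells with both products were Cd34-detected in 35 of 51 cases and cells with neither in 61 of 88. By plate the shares were 50, 72.7, 76.2 and 61.5% of 6, 11, 21 and 13 cells with both. In cells with neither they were 67.9, 60.9, 77.8 and 73.7% of 28, 23, 18 and 19 cells. The order of these states differed between plates, and the pooled counts mix the chase times. TEK, which encodes the receptor Tie2, differed in share by 14.8, -14.8, 1.20 and 5.08 points on the plates. The cyclin D1 gene Ccnd1 differed by 5.45, -7.58, 4.01 and -9.44, so neither had plates of 1 sign.

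The differences at 2 and 5 weeks were set side by side without a test. Cdkn1c was at -15.5 points at both times, Rb1 at 14.5 and 16.2, Cdkn2c at 15.6 and 16.4, and Slamf1 at -16.2 and -14.9. For vwf the means were -27.8 and -14.8 points, for Flt3 24.6 and 8.89, and for Ezh1 -8.19 and -16.2. The Mllt3 level differed by -1.26 and -1.02. The plates of the times overlapped for Flt3. For vwf the 2-week plates (-18.4 and -37.1) lay below the 5-week plates (-12.1 and -17.4), and for Ezh1 (-2.34 and -14.0 against -15.4 and -17.0) above them, with 2 plates a time.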

How the data were processed

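The authors deposited 1 table of Ct values that were not normalized, for 96 assays in 357 cells, with 999 for a reaction with no product. Per the labels' protocols, cDNA was pre-amplified for 22 cycles, diluted 5-fold and read by 30 cycles of EvaGreen PCR on a microfluidic array. The setting of the Ct threshold is not given in the sources used here. EvaGreen also reports non-specific products, so late products are uncertain. Products at Ct 25 or below counted as detected. Differences were taken within plates and averaged with equal weight, then within 3 strata of the Actb and Gapdh Ct (Mantel-Haenszel weights). A permutation of signs over 4 plates could not give a p below 0.125, so none is given.

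The cells and gene lists were chosen with earlier results of these data known. Named assays were the called ones (up to 10 a direction by share, 5 by level), Mllt3, Actb, Gapdh, the sort genes, up to 3 members per list by share difference and the 3 most and least like Cd34. Of trib3, Hlf, TEK, Ccnd1 and Myc the values were seen before they were named. Some assays that the rule or a count covers are not reported here. Of 96 assay names 95 matched mouse symbols of RefSeq (GRCm38.p6), 13 of them in another case or punctuation, and Sfpi kept its name. Scripts were tested on simulated plates and used Python 3.11.15, pandas 2.3.3, numpy 2.4.6, scipy 1.17.1 and matplotlib 3.10.9. Alternatives were other Ct limits, covariates, centrings, weights, minimum sizes and wells, each plate left out, and plates pooled.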

Additional observations from a re-analysis of the deposited data

Results flagged for a closer look

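In 70 sets of plate differences of the named assays, in share or level, 1 of the 4 plates stood apart from the others by Dixon's criterion for the gap to the nearest other plate, which chance meets for about 1 in 20 sets, in 6 sets, all of detection shares. They were Flt3 on 2-week plate 2 (42.6 points), Fos on 2-week plate 2 (-27.9), Tcf3 on 2-week plate 2 (9.03), Nkx2.3 on 5-week plate 2 (-16.3), Etv6 on 5-week plate 1 (5.00, from 1 of 20 undetected cells without a product, where all cells of the other plates had one) and Cdkn2c on 2-week plate 2 (14.9, where the other plates lay between 16.3 and 16.5). Of the 6, 4 concern 2-week plate 2.

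The share of Egr1 differed between Cd34 groups by -28.9 points on average at 2 weeks and by 5.10 at 5 weeks, with both plates of a time on the same side, and that of Fli1 by 6.18 and -3.0. The difference between the times was not tested.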

How the results depend on the processing

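No called assay named by the rule changed direction under the alternatives run, and trib3, outside it, did without centring (0.02). The calls of vwf, Slamf1, Cdkn1c, Cdkn2c and Rb1 in share held under all 18 alternatives for the share, and that of Mllt3 in level under all 12. The count of assays higher in share (4) ranged from 4 to 7 with 1 plate left out, was 9 without the replicate block (all plates pooled) and 8 at a minimum of 5 points, and the count lower (5) was 3 at a minimum of 15 points. After allowing for Actb and Gapdh the count higher (4) was 2 in a linear fit. By level, the count higher (1) ranged from 1 to 2 and the count lower (8) from 7 to 12 with 1 plate left out. They were 2 and 19 at a minimum of 0.25, 2 lower at a minimum of 1, 4 and 2 without centring, 3 and 4 with centring on 14 broadly detected assays, 0 and 4 at Ct 18, 5 and 3 relative to the median (added after seeing the data), and 3 higher with medians. At Ct 18 fewer assays have enough cells for a level. The cause was not tested for the other settings. Leaving out the 5 cells with late Cd34 products (also added afterwards) gave the same counts (4, 5, 1 and 8). The share difference of Mllt3 stayed within 1 SD of the plates in all settings. The 20 undetected cells on each 5-week plate limit the precision there.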
